A study of Mus musculus with 6 samples.

Results

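The genes described here serve the uptake and storage of lipid, and 10 were listed by symbol: the lipase gene Lpl, the lipid droplet coat genes Plin2, Plin3 and Plin4, the fatty acid receptor gene Cd36, the fatty acid-binding protein genes Fabp3, Fabp4 and Fabp5, the nuclear receptor gene Pparg and the triglyceride lipase gene Pnpla2. All 10 were found by Ensembl ID among the 56393 genes of the table. RNA was sequenced from primary mouse cells given in the labels as vascular smooth muscle (VSMC), the contractile cell type of the vessel wall, grown in medium with serum and given no further treatment. The compared groups were Nono knockout (KO, n = 3 libraries) and wild type (WT, n = 3 libraries), where the product of Nono is a nucleic acid-binding protein of nuclear paraspeckles. The sources used here give neither the way the knockout was made nor the strain, age and sex of the mice. They also leave unsaid whether replicates came from separate cultures or mice, so each p-value reflects the variation among these libraries alone, which may be technical.

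Lipoprotein lipase, made by Lpl, is secreted and cuts fatty acids from the triglycerides of circulating lipoproteins, held at the cell surface by heparan sulfate proteoglycans or by the endothelial protein GPIHBP1. Fatty acids enter cells with help from CD36 and are carried in the cytosol by small fatty acid-binding proteins. Surplus is stored as triglyceride in lipid droplets, which are coated by perilipins, and is released again by adipose triglyceride lipase, the product of Pnpla2. The receptor PPARγ, made by Pparg, drives many of these genes in fat cells, and Lpl, Cd36, Fabp4, Plin2 and Plin4 are among the known targets of PPAR receptors. In the vessel wall, smooth muscle cells and macrophages that fill with lipid droplets are known as foam cells.

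Libraries held 56529170 to 61670083 counts. Nono itself was at 514.6 ± 10.99 CPM (counts scaled to library size, SD, n = 3) in WT and at 53.9 ± 2.55 CPM in KO, lower in 3 of 3 KO libraries. The 4 Y-linked genes Ddx3y, Eif2s3y, Kdm5d and Uty had a summed level of 149.9 to 163 CPM in KO and of 0 to 0.0795 CPM in WT, so the groups also differ in the presence of Y-linked transcripts, and this cannot be told apart from genotype in any comparison below. Of 10 smooth muscle markers, 5 were higher and 4 lower in KO, and their sum was 74.0 to 89.1 CPM in WT and 249.8 to 252 CPM in KO. Most of that sum in KO was Acta2, which rose from 16.4 to 161 CPM. Myh11, the defining myosin of smooth muscle, averaged 0.466 CPM in WT against 0.219 CPM in KO, with overlapping groups, and was the marker of the 10 that missed the edgeR threshold (adjusted p = 0.375). Of 12 fibroblast markers, 11 were higher, with a summed level of 1414 to 1629 CPM in WT and 17455 to 18612 CPM in KO. Epithelial and mesothelial markers, with 2 higher and 2 lower of 4 tested (10 listed), summed to 77.1 to 85.1 CPM in WT and 9.87 to 13.5 CPM in KO, mostly Krt19. Cardiac and skeletal muscle markers, with 1 higher and 2 lower of 4 tested (12 listed), summed to 16.6 to 22.4 CPM in WT and 6.56 to 9.92 CPM in KO. For comparison, 35.1% of all tested genes were higher and 34.2% lower. Lum, Dpt, Cd34, Mfap5, Cnn1, Cdh1 and Wt1 passed the filter on low counts only through KO, and Myocd, Msln and Myh6 only through WT. Their part in the marker counts was fixed by the filter. Single markers are named here after their values were seen. The part of these differences in the results below was not tested, and in bulk RNA fewer cells of a type and less RNA per cell cannot be told apart.

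Every member passed an adjusted p of 0.05 between KO and WT, 7 of them higher and 3 lower in KO (edgeR quasi-likelihood test, Benjamini-Hochberg adjustment over 18732 tested genes). Among all tested genes 69.3% passed, 35.1% higher and 34.2% lower. The values of the libraries did not overlap between the groups in any of the 10 members, as in 75.5% of tested genes. A difference of at least 2-fold was found in 8 members, against 41.4% of tested genes. The members' median log2 fold change was 0.97, and that of all tested genes 0.0313. Cd36, Fabp4 and Pparg passed the filter on low counts only through the group in which they were high, so their part in these counts was fixed by the filter.

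**Figure D1:**
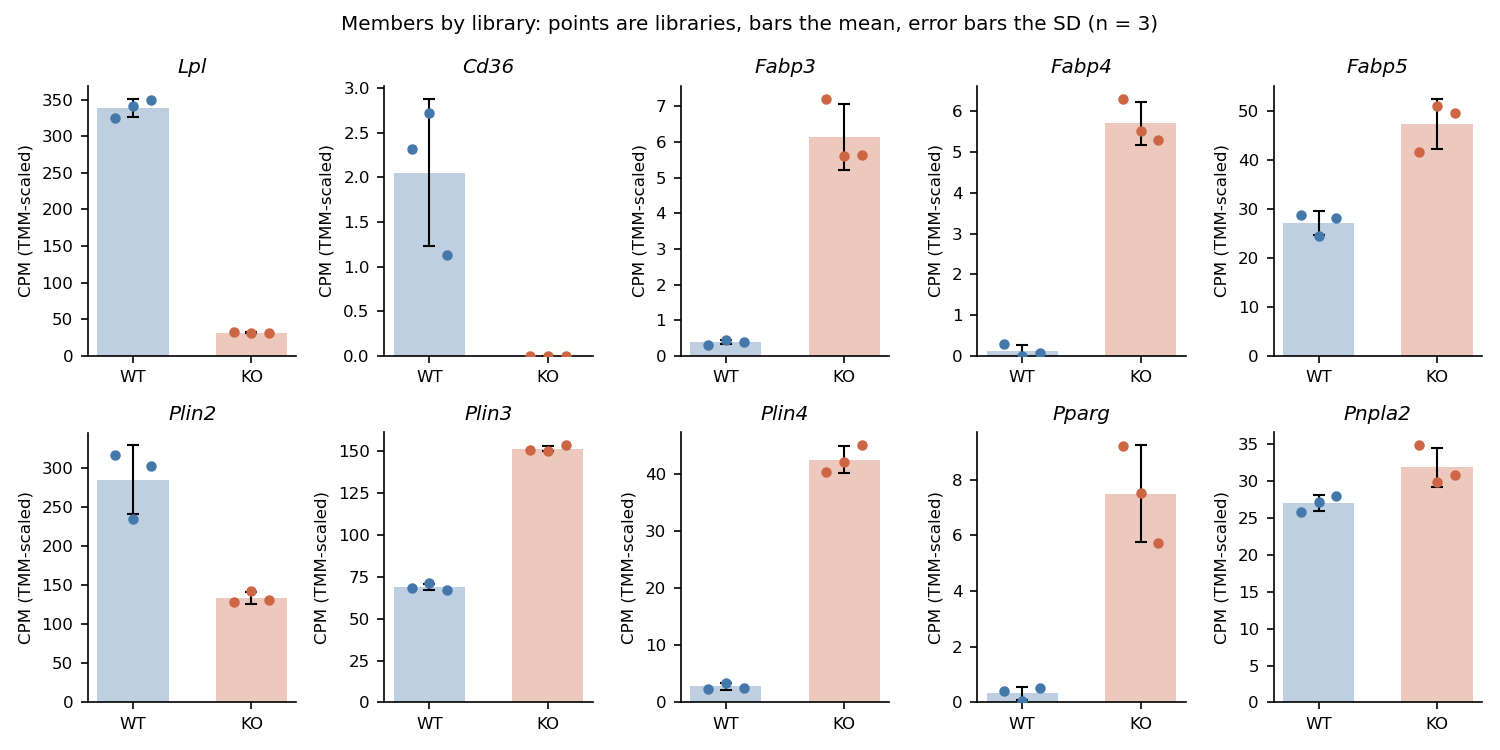
TMM-scaled CPM of the 10 members in each library (points), with the mean (bars) and SD (error bars) of the 3 WT and 3 KO libraries. Each y axis is linear, starts at 0 and has its own scale. Lpl, Cd36 and Plin2 were lower in every KO library than in any WT library, and the other 7 members were higher.

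Promoters are shown for members that moved in opposite directions, Plin2 and Cd36 (lower in KO) and Plin4 and Fabp3 (higher in KO). Sequences are the 250 bases before the transcription start, read 5′ to 3′ on the gene's strand, from RefSeq on build GRCm38.p6. That is not the build named for the counts, GRCm39, so these coordinates belong to the sequences alone. The bases that follow the start were found in an annotated transcript for Plin2, Plin4 and Fabp3 but not for Cd36. Capitals mark the closest match, with at most 2 mismatches on either strand, to AGGTCANAGGTCA, the direct repeat with a 1-base spacer that pairs of PPAR and RXR receptors are known to bind. Plin2 lies at chr4:86670060-86670309 on the minus strand and Cd36 at chr5:17835897-17836146 on the minus strand. Plin4 lies at chr17:56109783-56110032 on the minus strand and Fabp3 at chr4:130308488-130308737 on the plus strand.
Plin2: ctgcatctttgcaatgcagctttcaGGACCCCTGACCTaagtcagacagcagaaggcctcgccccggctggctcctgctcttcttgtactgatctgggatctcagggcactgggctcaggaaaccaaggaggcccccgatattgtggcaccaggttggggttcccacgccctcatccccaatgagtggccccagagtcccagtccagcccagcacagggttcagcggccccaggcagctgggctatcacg
Cd36: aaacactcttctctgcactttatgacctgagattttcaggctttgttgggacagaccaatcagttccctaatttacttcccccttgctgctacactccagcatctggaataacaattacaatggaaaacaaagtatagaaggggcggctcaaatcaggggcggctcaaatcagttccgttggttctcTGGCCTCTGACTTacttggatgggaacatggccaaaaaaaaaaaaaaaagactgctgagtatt
Plin4: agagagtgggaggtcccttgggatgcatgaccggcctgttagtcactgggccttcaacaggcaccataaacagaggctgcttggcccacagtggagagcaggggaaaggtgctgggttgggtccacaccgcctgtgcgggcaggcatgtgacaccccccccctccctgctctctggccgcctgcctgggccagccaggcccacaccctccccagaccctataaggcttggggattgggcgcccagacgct
Fabp3: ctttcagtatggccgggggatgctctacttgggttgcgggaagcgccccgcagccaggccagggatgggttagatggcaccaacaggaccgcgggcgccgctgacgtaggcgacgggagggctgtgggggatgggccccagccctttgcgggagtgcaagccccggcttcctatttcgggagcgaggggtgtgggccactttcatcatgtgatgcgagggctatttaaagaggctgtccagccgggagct

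The table held promoters of 7 members (9 starts, 3 of them of Pparg), and none for Lpl, Fabp4 and Fabp5. The starts used for Cd36 and Pnpla2 were not matched to an annotated transcript. A match with at most 2 mismatches was found in Plin2, at bases -225 to -213 from the start, and in Cd36, at bases -63 to -51. Both read on the strand opposite to the gene. Plin3, Plin4, Fabp3, Pparg and Pnpla2 had at least 3 mismatches at their best site. Of all 32851 promoters searched over the same 250 bases, 3.24% held such a match, and 0.0335% held one without a mismatch. The single unit AGGTCA, which is contained in the longer motif, occurred on either strand in 14.0% of them. These matches describe letters in a short window and say nothing of binding.

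Lpl (ENSMUSG00000015568) was lower in KO with little spread between libraries. It was at 325.6, 341.6 and 349.6 CPM in WT replicates 1 to 3 and at 32.2, 31.8 and 31.4 CPM in the KO replicates. The KO libraries lay within 1 CPM of each other and far under every WT library. The ratio of the means was 10.7-fold, with a log2 fold change of -3.41 ± 0.05 (SE, edgeR adjusted p = 1.17e-09). In the deposited FPKM, which scale counts by transcript length, Lpl fell from 75.5 ± 3.22 to 6.49 ± 0.0795 (SD, n = 3 each). The 3 genes whose pattern over the 6 libraries lay closest to that of Lpl, by Euclidean distance of centred log2 CPM among 10678 named genes of at least 5 CPM, were Psat1 (distance 0.141), N4bp3 (0.158) and Hoxb9 (0.168). Such a likeness mostly reflects a similar difference between the groups.

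Genes that act on lipoprotein lipase were mostly higher. Of 11 tested genes of its maturation in the cell, transport, cofactors and inhibitors (16 listed), 9 were higher and 0 lower in KO by the edgeR test. Their median log2 fold change was 1.36. Of all tested genes, 35.1% were higher and 34.2% lower. Apoc1 and Pcsk6, outside the naming rule, had 0 counts in every WT library and passed the filter only through KO. Their part in the 9 higher genes was fixed by the filter. Counting an unadjusted p under 0.05, or using DESeq2, also gave 0 lower genes. Angptl4, a secreted inhibitor of the enzyme and itself a known PPAR target, was at 35.5, 31.5 and 32.1 CPM in WT and at 234, 207.8 and 188 CPM in KO, or 6.36-fold higher on average (2.67 ± 0.09 in log2 with its SE, edgeR adjusted p = 5.66e-08). Its groups did not overlap, and its direction was opposite to that of Lpl. Among genes of heparan sulfate proteoglycans, to which the lipase binds, the list holds Hspg2 and Sdc1. Hspg2, perlecan, rose from 694 ± 64.2 to 1782 ± 110 CPM and Sdc1, syndecan 1, from 111 ± 6.08 to 353 ± 55.6 CPM. Gpihbp1 and the cofactor gene Apoc2, named after their values were seen, had 0 counts in all 6 libraries. Of the 2 tested genes on a list of other lipases, Lipa rose 2.90-fold and Lipg, endothelial lipase, fell from 1.32 to 0.381 CPM. Lipa encodes the lysosomal acid lipase, which is of another family than lipoprotein lipase. Lipg passed the filter only through WT, so its part in the count was fixed by the filter. Liph, under the filter in the fit over 6 libraries, was also called higher without WT replicate 1 or without KO replicate 3, which makes 2 higher genes there.

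Of 8 tested receptors that take up lipoprotein particles, 4 were higher and 2 lower in KO, with a median log2 fold change of 2.09. By comparison, 35.1% of all tested genes were higher and 34.2% lower. Vldlr, the receptor of very-low-density lipoprotein, which works together with lipoprotein lipase in several tissues, was at 0.0792, 0.0667 and 0.143 CPM in WT and at 88.9, 93.2 and 84.7 CPM in KO. WT libraries thus held few counts of Vldlr, from 4 to 9 each, and the ratio of the means was 924-fold (log2 fold change 9.81 ± 0.16 SE, edgeR adjusted p = 2.08e-09). Vldlr passed the filter only through KO, so its part in the 4 higher genes was fixed by the filter. Lrp1, a large endocytic receptor, rose from 1072 ± 51.9 to 5328 ± 212 CPM. Lrp8, the other close relative of Vldlr, fell from 61.1 ± 0.938 to 4.84 ± 0.482 CPM. The second lower gene, Sort1, outside the naming rule, was 1.23-fold lower and lost its call without WT replicate 2 (adjusted p = 0.0551), WT replicate 3 (adjusted p = 0.0567) or KO replicate 3 (adjusted p = 0.0658), which left 1 lower gene.

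Cd36 (ENSMUSG00000002944) was counted in WT alone. The gene encodes a scavenger receptor that also takes up long-chain fatty acids and oxidized lipoprotein. It had 146, 163 and 71 counts in WT replicates 1 to 3, or 2.31, 2.72 and 1.13 CPM, and 0 counts in every KO library. WT replicate 3 was the lowest of its group and still lay above every KO library. With KO set to a floor of 3 counts in all (0.0174 CPM), the difference was at least 118-fold (edgeR adjusted p = 0.000107). Counting error alone is covered by that floor. Of 12 endothelial markers, a cell type known for Cd36, 5 were tested, of which 4 were lower and 1 higher in KO. The list, most of it Egfl7 in WT, summed to 9.6 to 11.2 CPM in WT and 2.69 to 3.25 CPM in KO. Of these 12 markers, 4 were at 0 counts in all libraries, among them Cldn5 and Tie1. Of 16 macrophage and leukocyte markers 4 passed the filter, of which Csf1r (0.156 to 3.29 CPM) and Cd68 (1.08 to 2.23 CPM) were higher and Lyz2 (8.53 to 0.213 CPM) was lower. The list, most of it Lyz2 in WT, summed to 9.22 to 10.9 CPM in WT and 5.56 to 6.65 CPM in KO, and 8 were at 0 in all libraries, among them Ptprc, Adgre1 and C1qa. For comparison, 35.1% of all tested genes were higher and 34.2% lower. Vwf and Csf1r passed the filter only through KO, and Tek, Kdr and Lyz2 only through WT. Their part in these marker counts was fixed by the filter. The part of these cell types in the Cd36 result was not tested.

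All 3 cytosolic fatty acid-binding protein genes among the members were higher in KO, by very different amounts. Fabp5 (ENSMUSG00000027533), the epidermal form and the most abundant per length, was at 28.9, 24.5 and 28.1 CPM in WT and at 41.6, 51.1 and 49.6 CPM in KO. The gap between its groups was narrow, with a mean difference of 1.75-fold (log2 fold change 0.80 ± 0.10 SE, edgeR adjusted p = 0.000153). Fabp3 (ENSMUSG00000028773), the heart form, was at 0.317, 0.433 and 0.397 CPM in WT and at 7.21, 5.598 and 5.63 CPM in KO. KO replicate 1 was the highest library, and the ratio of the means was 16.1-fold (SE of the log2 fold change 0.24, edgeR adjusted p = 1.17e-06). Fabp4 (ENSMUSG00000062515), the form of fat cells and macrophages, had 18, 0 and 5 counts in WT and 370, 303 and 313 counts in KO, or 0.122 ± 0.147 CPM in WT and 5.71 ± 0.527 CPM in KO. Most WT counts of Fabp4 came from WT replicate 1. The log2 fold change was 5.51 ± 0.74 (SE, edgeR adjusted p = 0.000385), and 7.07 without WT replicate 1 (adjusted p = 4.85e-05).

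In length-scaled terms the 3 binding proteins changed their makeup. Their deposited FPKM summed to 25.9, 22.1 and 25.5 in WT and to 45.8, 51.9 and 50.3 in KO. Fabp5 made up 98.1 ± 0.300% of that sum in WT and 77.5 ± 4.27% in KO. Fabp3 went from 1.70 ± 0.416% to 12.8 ± 2.76% and Fabp4 from 0.156 ± 0.135% to 9.70 ± 1.51%. The shares of the WT libraries did not overlap with those of the KO libraries for any of the 3 genes. For Fabp4 the ratio of deposited FPKM to count varied 4.43-fold over the libraries with counts, against 1.09-fold for Fabp5 and 1.10-fold for Fabp3, so its WT share is the least certain. Fabp3 overlaps Zcchc17 and Gm10570 on the other strand in GENCODE M21, and no source used here gives the strand setting of the counting. Zcchc17 fell from 27.7 to 19.2 CPM, and Gm10570 had 0.107 CPM in WT and 0 counts in KO. The pseudogene Fabp3-ps1 averaged 0.0422 CPM in WT against 0.110 CPM in KO.

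**Figure D2:**
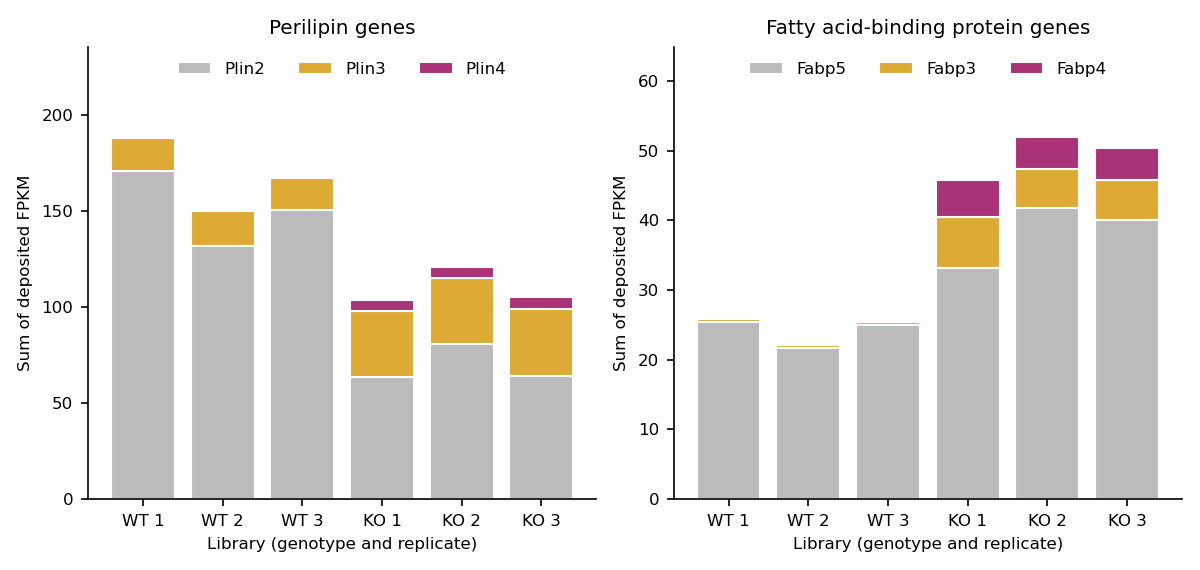
Deposited FPKM of the perilipin genes (left) and of the fatty acid-binding protein genes (right), stacked by gene for each of the 6 libraries. Plin2 and Fabp5 formed most of each sum in every library, and the parts of Plin3, Plin4, Fabp3 and Fabp4 were larger in each KO library than in any WT library.

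Fatty acid transport and activation genes outside the members moved in both directions. Of 13 tested genes (19 matched), 6 were higher and 5 lower, against 35.1% and 34.2% of all tested genes. The list had a median log2 fold change of 1.56. Slc27a6 and Acsl6 passed the filter only through KO, so their part in the 6 higher genes was fixed by the filter. Slc27a1, a plasma membrane fatty acid transport protein, rose from 41.4 ± 3.31 to 139.8 ± 1.76 CPM. Dbi, which binds acyl-CoA in the cytosol, rose 3.72-fold, and Cavin1, a coat protein of caveolae, 2.96-fold. Among the acyl-CoA synthetases, which activate fatty acids and were named after their values were seen, Acsl1, Acsl3, Acsl4 and Acsl5 fell, by 1.17, 1.22, 0.48 and 0.45 on the log2 scale, and Acsl6 rose from 0.185 to 2.55 CPM. Cav1, caveolin 1, also outside the naming rule, was at 27.1 and 31.0 CPM in KO replicates 1 and 2 and at 251 CPM in KO replicate 3, and missed the edgeR threshold (adjusted p = 0.155).

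The perilipins did not move together. Plin2 (ENSMUSG00000028494), the coat protein found on droplets of most cell types, was at 316, 234 and 302.5 CPM in WT and at 128, 142 and 131 CPM in KO. WT replicate 2 was the lowest of its group and still lay above every KO library. The difference was 2.13-fold (log2 fold change -1.09 ± 0.11 SE, edgeR adjusted p = 7.5e-05). Plin3 (ENSMUSG00000024197), also called TIP47, which moves from the cytosol onto young droplets, was at 68.0, 71.2 and 67.3 CPM in WT and at 150.7, 150.2 and 153 CPM in KO. Its libraries lay close together within each group, and the KO mean was 2.20-fold that of WT (1.14 ± 0.05 in log2 with its SE, edgeR adjusted p = 1.45e-07). Plin4 (ENSMUSG00000002831), a perilipin of fat cells and muscle with long amphipathic repeats, was at 2.39, 3.48 and 2.59 CPM in WT and at 40.4, 42.1 and 45.0 CPM in KO. The ratio of its means was 15.1-fold (log2 fold change 3.91 ± 0.15 SE, edgeR adjusted p = 1.06e-07). Plin4 overlaps the end of Hdgfl2 on the other strand, which averaged 72.8 CPM in WT against 84.5 CPM in KO.

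Per length, the sum of the 3 perilipin genes was lower in KO while its makeup shifted. It was 188, 150.4 and 167.6 FPKM in WT and 103.6, 121 and 105 FPKM in KO, without overlap. Plin2 made up 89.4 ± 1.65% of the sum in WT and 62.8 ± 3.25% in KO. Plin3 went from 10.3 ± 1.57% to 31.8 ± 2.72% and Plin4 from 0.248 ± 0.0840% to 5.38 ± 0.605%. Plin2 nonetheless remained the largest of the 3 in each KO library. A list made for other droplet coat and assembly factors was split, with 4 higher and 4 lower of 13 tested. This compares with 35.1% higher and 34.2% lower of all tested genes. The list had a median log2 fold change of 0.16. Its lower genes include Ethe1, which encodes a mitochondrial enzyme of sulfide breakdown and not a droplet factor. Hsd17b11, a droplet-bound dehydrogenase, rose from 20.0 ± 0.727 to 78.3 ± 0.548 CPM, Tmem159, which works with seipin in droplet formation, 3.97-fold, and Vps13c, a lipid transfer protein, 1.70-fold. The fat cell droplet genes Cidea and Cidec were at 0 counts in all libraries, and Plin1 had at most 4 counts in a library.

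Pparg (ENSMUSG00000000440) was low in WT and higher in KO. It had 25, 4 and 32 counts in WT replicates 1 to 3 and 541, 413 and 338 counts in the KO replicates, or 0.324 ± 0.230 CPM and 7.49 ± 1.74 CPM. WT replicate 2 was the lowest library and KO replicate 1 the highest. The ratio of the means was 23.1-fold (log2 fold change 4.51 ± 0.55 SE, edgeR adjusted p = 0.000188). Counts are summed over the gene, so its 3 starts and the isoforms they give cannot be told apart. The members known as PPAR targets went both ways, since Fabp4 and Plin4 were higher while Lpl, Cd36 and Plin2 were lower.

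Regulators around Pparg moved in both directions. Of 21 tested PPAR and adipogenic regulators, Pparg included, 11 were higher and 8 lower, with a median log2 fold change of 0.15. Among all tested genes, 35.1% were higher and 34.2% lower. Pparg, Klf15, Ebf1, Zfp423 and Prdm16 passed the filter only through KO, and Ppara and Ebf2 only through WT. Their part in these counts was fixed by the filter. Cebpd, a transcription factor that acts early in fat cell formation, rose from 22.2 ± 2.78 to 347 ± 7.15 CPM. Ebf1, another factor of that programme, rose from 0.0702 to 19.1 CPM, and Prdm16, a factor of brown fat, from 0 counts to 13.7 ± 1.503 CPM, at least 853-fold. Ppara, the related receptor of fatty acid oxidation, which was named after its values were seen, fell from 2.37 ± 0.352 to 0.21 ± 0.0599 CPM. The third PPAR gene, Ppard, averaged 34.2 ± 7.69 CPM in WT against 37.0 ± 13.5 CPM in KO, missing the edgeR threshold (adjusted p = 0.748). Of 12 adipocyte markers only Lipe, Slc2a4 and Fabp4 passed the filter. Slc2a4 did so only through WT and Fabp4 only through KO. Lipe and Fabp4, itself a member, were higher, while Slc2a4, the insulin-responsive glucose transporter, fell from 1.69 to 0.18 CPM. The list summed to 8.27 to 8.87 CPM in WT and to 18.9 to 24.4 CPM in KO, and Lep, Cidec, Cidea and Ucp1 were at 0 counts in all libraries. Adipoq, which encodes adiponectin, had 12 counts in KO replicate 1 and 0 in the other libraries.

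Pnpla2 (ENSMUSG00000025509) showed the smallest difference of the members. It was at 25.9, 27.1 and 28.0 CPM in WT and at 34.8, 29.9 and 30.8 CPM in KO. KO replicate 1 stood above the other KO libraries, which lay close to the highest WT library. The difference was 1.18-fold (log2 fold change 0.24 ± 0.08 SE, 95% interval 0.0426 to 0.434, edgeR adjusted p = 0.0343). With scaling by total counts it was 0.11 on the log2 scale (adjusted p = 0.285), and the call was lost in 8 of 14 alternatives, among them those without WT replicate 1 (adjusted p = 0.0927), WT replicate 2 (0.0625), KO replicate 1 (0.125) or KO replicate 3 (0.0550).

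Partners of the Pnpla2 product and other lipases were mostly higher in KO. Of 10 tested lipolysis genes, 8 were higher and 1 lower, with a median log2 fold change of 0.96. The shares of all tested genes were 35.1% higher and 34.2% lower. Ces1d, G0s2 and Mgll passed the filter only through KO, so their part in the 8 higher genes was fixed by the filter. Abhd5, also called CGI-58, the coactivator of adipose triglyceride lipase, was at 24.1, 20.9 and 22.8 CPM in WT and at 62.7, 61.6 and 66.1 CPM in KO, or 2.81-fold higher (1.49 ± 0.07 in log2 with its SE, edgeR adjusted p = 4.34e-07). G0s2, an inhibitor of the same lipase, was higher too, rising from 0.113 ± 0.0294 to 2.84 ± 0.411 CPM. The coactivator and the inhibitor thus moved in the same direction. Ces1d, a carboxylesterase of triglyceride breakdown, rose from 0 counts to 11.9 ± 0.645 CPM, at least 735-fold, and belongs to a cluster of similar genes among which reads may be split. Lipe, hormone-sensitive lipase, named after its values were seen, was 2.29-fold higher.

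Of 17 tested genes on a list of triglyceride synthesis, 9 were lower and 4 higher in KO, against 34.2% and 35.1% of all tested genes. The list had a median log2 fold change of -0.39. It includes Soat1 and Soat2, both called lower, whose products esterify cholesterol and do not make triglyceride. Soat2 passed the filter only through WT and Lpin3 only through KO, so their part in these counts was fixed by the filter. Dgat2, which adds the last fatty acid to make triglyceride, was at 81.5, 79.0 and 78.8 CPM in WT and at 4.87, 4.47 and 3.65 CPM in KO, or 18.4-fold lower (-4.20 ± 0.11 in log2 with its SE, edgeR adjusted p = 1.73e-08). Gpat3, a glycerol-phosphate acyltransferase of the opening step, fell from 56.8 ± 2.36 to 2.83 ± 0.535 CPM, and Mogat2, a monoacylglycerol acyltransferase, from 8.33 ± 1.22 to 0.568 ± 0.0824 CPM. Dgat1, the other enzyme of the last step, outside the naming rule, was 1.31-fold lower (edgeR adjusted p = 0.0199), a call lost without WT replicate 1 (adjusted p = 0.0633) or KO replicate 3 (0.0530). Of 26 genes of fatty acid oxidation, 12 were higher and 7 lower, with a median log2 fold change of 0.11. The share called in either direction was near the 69.3% of all tested genes. Ucp2, among the lower genes, passed the filter only through WT. Acaa2, a mitochondrial thiolase, rose from 17.1 ± 0.461 to 76.5 ± 2.58 CPM, Acadl, long-chain acyl-CoA dehydrogenase, 2.36-fold, and Eci2, an isomerase for unsaturated fatty acids, 2.11-fold.

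**Figure D3:**
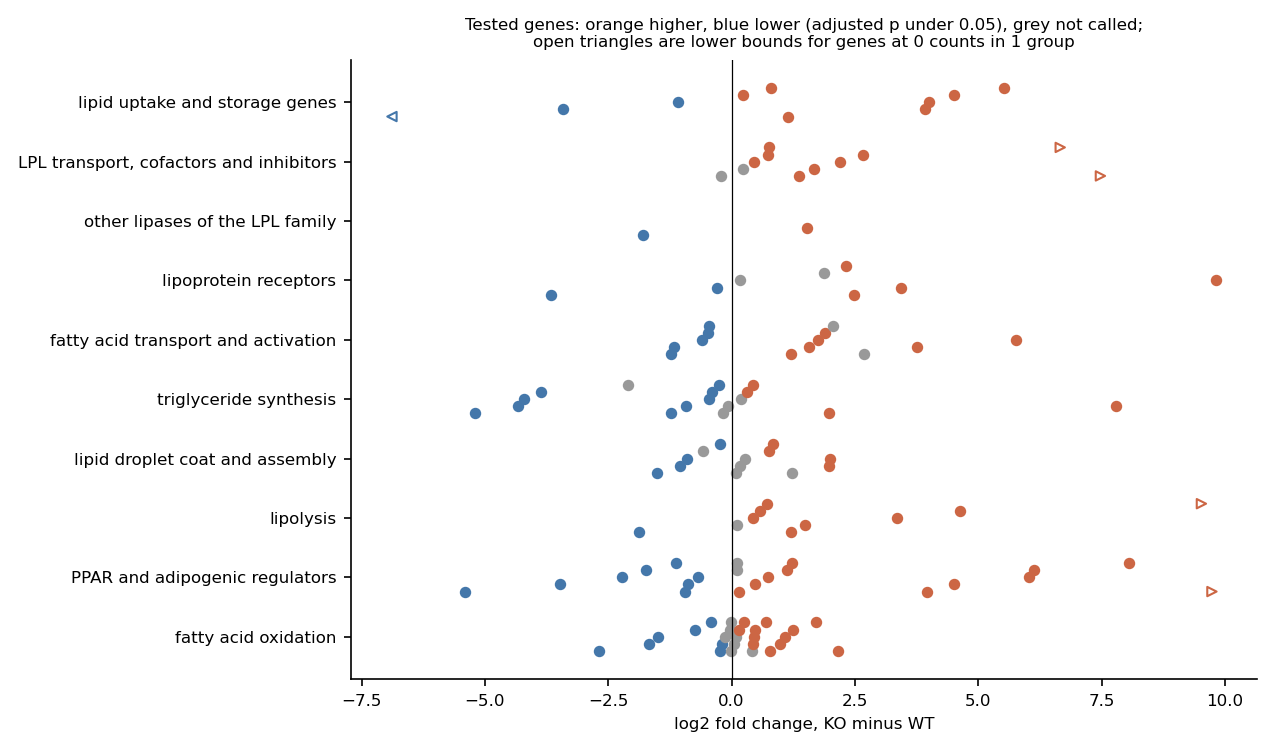
Log2 fold change (KO minus WT) of every tested gene of the 10 members and of 9 lists of related lipid genes. Orange marks genes higher and blue genes lower at an adjusted p of 0.05, grey genes that were not called, and open triangles lower bounds for genes at 0 counts in 1 group. Tested members of the lipase cofactor list had no lower call, whereas 9 of 17 tested genes on the triglyceride synthesis list were lower. These include the sterol acyltransferase genes Soat1 and Soat2. Of all tested genes, 34.2% were lower.

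The order of the members by deposited FPKM differed between the groups. In WT it ran from Plin2 (151 ± 19.7 FPKM) through Lpl (75.5), Fabp5 (24.0), Plin3 (17.3) and Pnpla2 (9.97), each apart from the next, to Cd36, Fabp3, Plin4, Pparg and Fabp4, all under 1 FPKM. Cd36 overlapped with Fabp3, Fabp3 with Plin4, and Pparg with Fabp4. In KO, Plin2 was again the highest (69.3 ± 9.74 FPKM), followed by Fabp5 (38.3) and Plin3 (34.8), which overlapped, and by Pnpla2 (11.6). Lpl (6.49), Fabp3 (6.25) and Plin4 (5.89) then overlapped with their neighbours, above Fabp4 (4.76), Pparg (3.05) and Cd36, which was listed at 0. Lpl thus went from place 2 in WT to place 5 in KO.

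**Figure D4:**
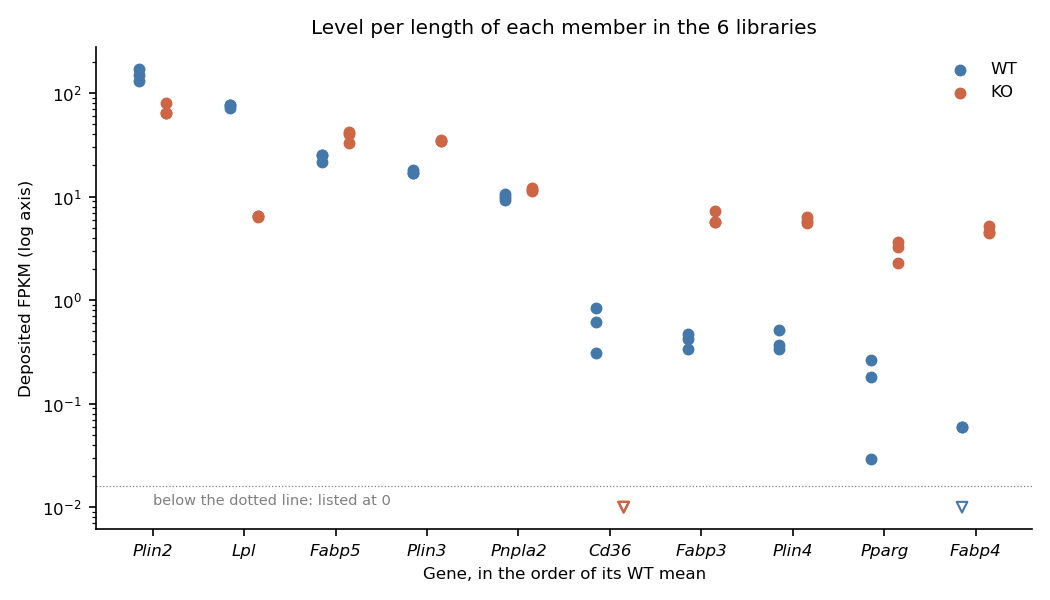
Deposited FPKM of each member on a log axis, with 3 WT and 3 KO libraries as points and genes in the order of their WT mean. Open triangles under the dotted line mark libraries where a gene was listed at 0, which were the KO libraries for Cd36 and WT replicate 2 for Fabp4.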

How the data were processed

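RNA sequencing of 3 WT and 3 KO samples was used, with groups and replicate numbers from the sample titles. The authors deposited 1 table that holds, for each sample and Ensembl gene, a raw read count and an FPKM value, per the file headers. CASAVA 1.8, HISAT2, SAMtools 1.3.1, edgeR and build GRCm39 are named in the submitters' processing notes, without their roles. No source used here gives the read counter, its strand setting or the annotation.

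Symbols came from GENCODE M21 by Ensembl ID (55394 of 56393 genes, 98.2%), which is of build GRCm38. The filterByExpr filter retained 18732 genes, and TMM gave factors of 0.952 to 1.06. Some listed genes near 0 counts in a group passed the filter only through the other group, as did some members. Their part in the list counts was fixed by the filter. KO was compared with WT, without covariates, by edgeR's quasi-likelihood test with robust fitting (edgeR 4.0.16, R 4.3.3) and Benjamini-Hochberg adjustment over all tested genes at 0.05. The SE of a log2 fold change was derived from its F statistic. Fold differences are ratios of mean CPM. For a group without counts a floor was used, of 3 counts summed over its libraries (0.0161 CPM in WT, 0.0174 CPM in KO), which covers counting error only. The spread between replicates exceeded counting noise (chi-square divided by its degrees of freedom, 22.6 to 34.8). List medians use fitted fold changes. Those printed are the same with genes at 0 in a group set at their bound.

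The members and all gene lists were chosen with earlier results of these data known. List entries that are another name of an entry already listed were unmatched. The naming rule took all members, from each list the 3 genes of at least 1 CPM with the smallest adjusted p, and the 3 genes closest to Lpl. Alternatives were DESeq2 1.42.0, limma 3.58.1 (voom, and log2 of FPKM + 0.1), other scalings, filters and thresholds, a block for the replicate number, and each library left out in turn. Counts were simulated for 18732 genes of the KO against WT comparison, with 50 genes each given a 1.5-, 2-, 4- or 8-fold change. The test recovered 42% of genes given 1.5-fold, 90% of those given 2-fold and 100% of those given 4-fold. It also called 20 unchanged genes. Far fewer genes changed there than the 69.3% called here, which makes the adjusted p stricter. These rates therefore do not carry over to the real comparison. Promoters were searched with Python 3.11.15.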

Additional observations from a re-analysis of the deposited data

How the results depend on the processing

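Of the 10 members, 9 kept direction and call in all 14 refits, with log2 fold changes of -3.54 to -3.38 for Lpl, -1.22 to -1.001 for Plin2, 1.01 to 1.16 for Plin3, 3.57 to 4.09 for Plin4, 3.64 to 4.10 for Fabp3, 4.95 to 7.07 for Fabp4, 0.67 to 0.89 for Fabp5 and 3.72 to 4.99 for Pparg. Cd36 also stayed lower, but its fitted size depends on the prior count. Pnpla2 kept its direction and lost its call with scaling by total counts (log2 fold change 0.11), without a filter (0.22), with the DESeq2 Wald test (0.22) and under the replicate block (0.24, adjusted p = 0.0747), and ranged from 0.17 to 0.29 on leaving out 1 library. The cause was not tested. The number of members called higher ranged from 5 to 7, with 3 lower throughout. With a fold threshold of 2, 4055 genes were higher and 3702 lower in all, and by list 2 (lower) for fatty acid transport, 2 and 5 for triglyceride synthesis, 2 and 2 for droplet coat and assembly, 5 (higher) for lipolysis, 5 (lower) for PPAR regulators and 4 and 3 for fatty acid oxidation. That threshold admits fewer genes by construction. Lower lipoprotein receptors numbered 1 with that threshold and at an adjusted p of 0.01, and 1 to 2 without 1 library. Genes on the list of other lipases called higher numbered 2 with DESeq2 and 1 to 2 without 1 library, and those lower 0 at an adjusted p of 0.01. Scaling by total counts moved the median log2 fold change of tested genes from 0.0313 to -0.0992. No shared effect of the replicate number was seen (correlations of same-numbered deviations -0.0237 to 0.018). This cannot show whether same-numbered samples were handled together. The block called 6214 genes higher and 6019 lower against 6578 and 6402. With 3 libraries a group, fold changes of 1.5 were often missed on simulated counts. Far fewer genes changed there than here, so the share missed in these data is not known. Depth limits Fabp4, Pparg and Fabp3 in WT.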
